A study of Sminthopsis crassicaudata with 9 samples.

Results

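In the face of newborn young, 299 genes of the fat-tailed dunnart carried an H3K4me3 peak within 1 kb of the transcription start site (TSS). Next to no RNA of these genes was counted. The genes were chosen by their measured RNA and H3K4me3. A gene was taken as silent when it lay under 0.1 TPM, a measure of transcript abundance scaled to exon length and library, in all 3 RNA libraries. It was taken as marked when an H3K4me3 peak with q under 0.05 and a fold enrichment over input of at least 10 lay within 1 kb of the TSS in both pools. A silent marked gene was left out when another gene over 1 TPM in any library had its TSS within 5 kb. Of 21692 gene models with counts, 5472 were silent, which is 25.2% of all models, and 11689 were marked, 53.9% of all models. Among the silent models 510 were marked, a share of 9.32%, and 211 of them had an expressed neighbour, which left the 299 genes on 78 scaffolds. These 299 genes used 251 distinct H3K4me3 peaks of pool 1, so that some genes shared a peak.

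The tissue was the craniofacial region of *Sminthopsis crassicaudata* pouch young on the day of birth, with no treatment and no other genotype, age or tissue to set it against. H3K4me3 and H3K27ac were profiled by chromatin immunoprecipitation and sequencing in 2 pools, of 26 and 27 heads by the sample labels, each with its own input of total DNA. The methods of the study give a lower total of young for both pools. RNA was measured in 3 libraries of facial prominences, each from 2 young, holding between 16096971 and 17419099 counts. A pool mixes every cell type of the face, so transcription in few cells and little transcript in each cell cannot be told apart. The markers of the tissue were present. All 6 facial mesenchyme markers, 5 of 5 surface epithelium markers, 4 of 4 skeletal muscle markers and 5 of 5 markers of neurons and sensory ganglia had a mean over 1 TPM. Of the brain and eye, which the study dissected away, 3 of 5 and 1 of 4 listed markers with a value did. *NEUROD1* and *NEUROD2*, also on the brain list, had no value. The summed level of the brain markers was 11.2 to 30.3 TPM in the 3 libraries. Of the eye markers, *RAX*, which specifies the eye field, was at 0, while *CRYAA* had a mean of 3.50 TPM.

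H3K4me3 is placed on nucleosomes around the start sites of genes read by RNA polymerase II, where unmethylated CpG-rich DNA recruits the enzymes that write it, and it can be present before a gene is transcribed. In embryonic cells many promoters of developmental regulators carry H3K4me3 together with the Polycomb mark H3K27me3, which was not measured here. H3K27ac is found at promoters and enhancers in use. Transfer RNA (tRNA) genes are read by RNA polymerase III from promoter elements inside the gene, and active ones lie in open chromatin with histone marks much like those of polymerase II promoters.

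The 299 genes fell into 5 classes. Models with only a LOC identifier, that is without a symbol, made up 119 of them and tRNA genes 106. Transcription factor genes numbered 22, other genes with a symbol 51, and the microRNA gene *MIRLET7I* was the last. Small RNA genes as a whole, the tRNA genes with *MIRLET7I*, were 35.8% of the set (95% Wilson interval 30.6% to 41.4%, counting error only), against 414 of 21692 models in the table. LOC models were the most frequent class, yet only 2.82% of silent LOC models were in the set, beside 34.5% of silent tRNA genes and 5.46% of all silent models.

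Silence is bounded differently in each class, because TPM divides by exon length. A count of 0 in 1 library allows up to about 3 counts. At the mean depth of a library, 3 counts correspond to a median of 5.00 TPM in the 106 tRNA genes and never less than 4.34 TPM. A count of 0 in all 3 libraries together would bound the mean more tightly, which was not computed. The median of this value was 0.176 TPM in the transcription factor genes, 0.116 TPM in the other genes with a symbol and 0.394 TPM in the LOC models. It was computed for every gene, and at genes with counts it only shows what 3 counts amount to. For 268 of the 299 genes 3 counts in a library exceeded the limit of 0.1 TPM, and for 133 they exceeded 1 TPM. No count was recorded in any library for 232 genes, including all 106 tRNA genes, and the highest total was 22 counts, at the 13604 bp of exon of the axonemal dynein gene *DNAH7*. The RNA libraries were made with a stranded mRNA kit, which selects polyadenylated transcripts, and tRNA carries no poly(A) tail. For tRNA genes a TPM of 0 therefore says that the assay gave no count and nothing about their transcription. There were 122 genes with under 200 bp of exon, among them single fragments of longer genes such as *IRS4* with 52 bp, *KIAA1671* with 57 bp and *UPF3B* with 153 bp.

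The values that chose the genes are given as a description. The median H3K4me3 fold enrichment was 19.2 in pool 1 and 23.2 in pool 2, with 223 of 299 genes higher in pool 2. The 7668 marked genes over 1 TPM in all 3 libraries with no other expressed TSS within 5 kb, the expressed genes used for comparison below, had medians of 49.6 and 58.0. In the range of 10 to 20 (mean of both pools) were 45.5% of the silent marked genes and 5.50% of the expressed genes. Just inside the limit were *MEIKIN*, at 10.0 and 13.4 in pools 1 and 2, and *VENTX*, at 10.1 and 15.99. Just outside were *COL6A6*, at 9.96 and 10.1, and *TMEM215*, at 12.3 and 9.94. For RNA, *CCDC113* and *SPATA17* were just inside, with highest values of 0.0981 and 0.0975 TPM, and *FOXB2* and *PKHD1L1* just outside, with 0.102 and 0.103 TPM.

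H3K27ac was not used to choose the genes. A peak of this mark with q under 0.05 lay within 1 kb of the TSS in both pools at 293 of the 299 genes, or 98.0%. The share was 71.7% of all genes, 33.9% of silent genes and 99.9% of the expressed genes that met the same H3K4me3 condition. Among 943 silent genes with a weaker H3K4me3 peak in both pools and no expressed neighbour it was 85.3%, and among 3418 silent genes with no H3K4me3 peak in either pool and no expressed neighbour it was 6.41%. The silent marked genes were close to the expressed genes in how often the mark was present and further from them in its level. The median H3K27ac fold enrichment was 11.02 and 10.7 in the 2 pools at the silent marked genes and 34.5 and 29.0 at the expressed genes. A mean of at least 10 was reached by 161 silent marked genes, 53.8% of the set, and by 95.7% of the expressed genes. The gap exceeded the difference between pools, but genes are not replicates of a condition, and no test across them was made.

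**Figure D1:**
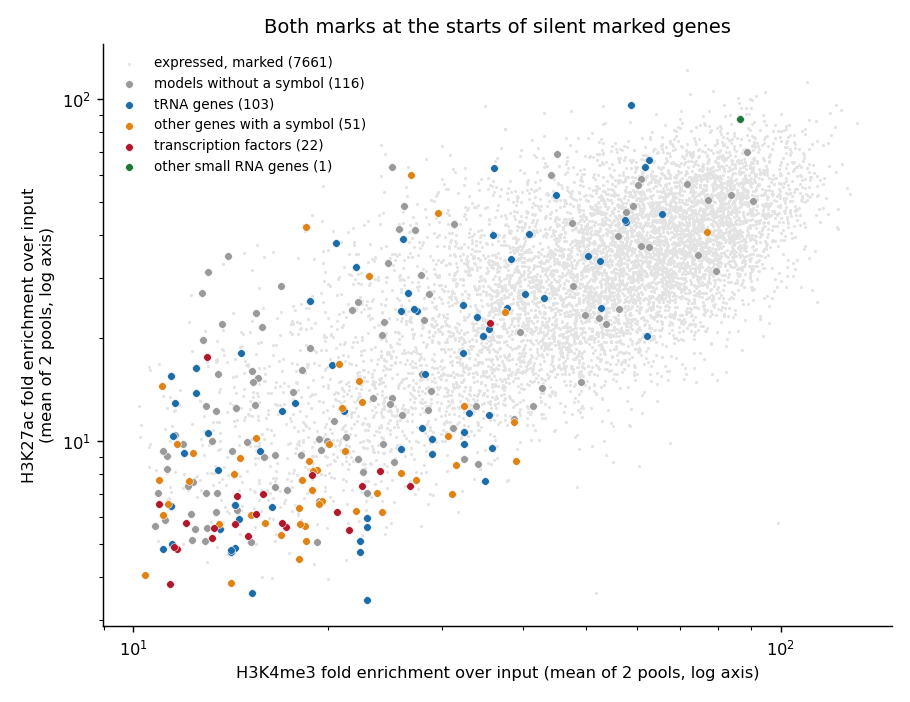
Mean H3K4me3 fold enrichment (horizontal) against mean H3K27ac fold enrichment (vertical), both over input and on log axes, for the 293 silent marked genes with H3K27ac in both pools, coloured by class, over the 7661 expressed genes in grey. The transcription factor genes lie in the lower left corner, apart from SOX30 and VENTX, while tRNA genes and LOC models spread along the whole cloud.

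Since the expressed genes carried more H3K4me3, H3K27ac was compared at like H3K4me3. At a fold enrichment of 10 to 20 the median H3K27ac was 7.61 for 136 silent marked genes and 11.5 for 422 expressed genes. At 20 to 40 it was 12.3 for 116 and 19.9 for 1780 genes. Over 40 the order turned, with 43.3 for 47 silent marked genes and 37.1 for 5466 expressed genes. The pool medians of silent and expressed genes did not overlap in the lower ranges, where the silent marked genes had pool medians of 7.83 and 7.16 at 10 to 20 and 11.7 and 12.01 at 20 to 40. The expressed genes had 11.98 and 11.1, then 20.8 and 18.6. Above 40 the pool medians overlapped, at 45.5 and 40.3 for the silent marked genes and 40.4 and 33.5 for the expressed genes. The 47 genes of the top range consisted of 19 tRNA genes and 28 others, none of them a transcription factor gene. The 28 include the 5 LOC models, described below, whose peak reaches the TSS of an expressed gene. Some of the 47 genes also share a peak and its values. The median of this range was not computed without such genes, so its order is not read as a trait of silent genes.

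**Figure D2:**
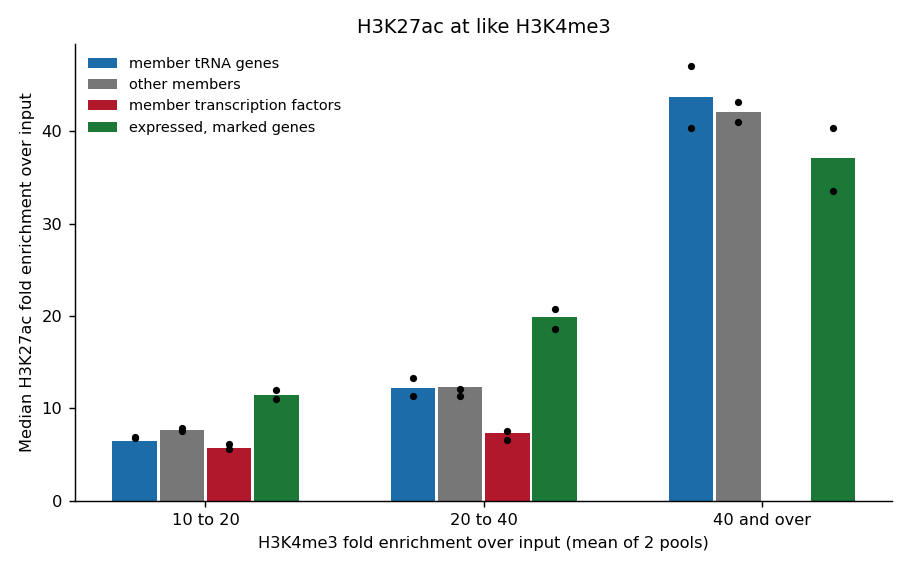
Median H3K27ac fold enrichment over input (vertical) in 3 ranges of mean H3K4me3 fold enrichment (horizontal), with bars for the mean of the pools and points for pools 1 and 2. The transcription factor genes, which are also counted among the other members, are lowest at 20 to 40 and missing above 40, where members and expressed genes are at similar heights.

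The 22 transcription factor genes included regulators of the brain, spinal cord, pancreas, kidney and posterior body axis. Homeobox genes led, with 13 genes outside the HOX clusters and 3 within them. The 13 were 41.9% of the 31 silent genes of that list, which has 137 genes in all, and 92 of the 137 were marked. Of the HOX genes 19 of 29 were silent and 3 of these were in the set, *HOXA13*, *HOXD13* and *HOXA9*, which pattern the limbs and the hind end of the body axis. Basic helix-loop-helix factors gave 3 of 8 silent genes, T-box factors 1 of 2, SOX factors 1 of 1 and zinc finger factors 1 of 10. Forkhead factors gave 0 of 2, nuclear receptors 0 of 2, and GATA factors had no silent gene. Families are matched by symbol, so a factor whose symbol is in none of the lists is counted among the other genes.

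Several of the 22 genes specify parts of the nervous system. *EN2*, which patterns the midbrain and hindbrain, had an H3K4me3 fold enrichment of 24.4 in pool 1 and 29.1 in pool 2. Its H3K27ac was 9.85 and 4.90, and its counts were 1, 0 and 0 in the 3 libraries. *GSX2*, a regulator of the ventral telencephalon, had H3K4me3 of 20.8 and 27.3 and H3K27ac of 7.48 and 8.82, again with a single count. *POU4F2*, needed for retinal ganglion cells, had 17.3 and 25.8, with H3K27ac of 4.93 and 6.05. *PTF1A*, a bHLH factor of the pancreas, cerebellum and retina, had 20.8 and 24.3, with H3K27ac of 7.70 and 7.09 and no count. At each of these genes H3K4me3 stood above H3K27ac in both pools. The rule set a lower limit for H3K4me3 and none for H3K27ac, so this order is a description only. It was also the common order. Among marked expressed transcription factors with H3K27ac in both pools, only 14.0% had a mean H3K27ac above the mean H3K4me3. Of the 5 brain markers with a value, 3 were over 1 TPM, the highest *EMX2* at 14.7 TPM, and the eye marker *CRYAA* was at 3.50 TPM. The part of residual brain or eye tissue in the marks at *EN2*, *GSX2*, *POU4F2* and *PTF1A* was not tested.

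The posterior and trunk regulators had the same common order of the marks. *HOXA13* (scaffold00009_pilon_pilon, 54768236 to 54770538, plus strand) had H3K4me3 of 13.5 and 27.8, a wide difference between the pools, and H3K27ac of 7.06 and 5.37, with no count. *HOXD13* had 14.7 and 16.3, and *HOXA9* had 10.4 and 13.7. *TBXT*, the Brachyury factor of the notochord and early mesoderm, had 15.98 and 12.7, and *MSGN1*, a bHLH factor of the presomitic mesoderm, had 10.8 and 11.1. None of the 4 genes *HOXA13*, *HOXD13*, *HOXA9* and *TBXT* had a single count. Of the regulators of the endocrine pancreas, *NEUROG3* had 12.2 and 10.9 and *PDX1* 10.6 and 12.2, both without a count. *PDX1* had the lowest H3K27ac of the 22 factors, at 3.83 and 3.82. *WT1*, which directs kidney and gonad formation, had 10.7 and 12.7 with H3K27ac of 3.89 and 5.76.

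**Figure D3:**
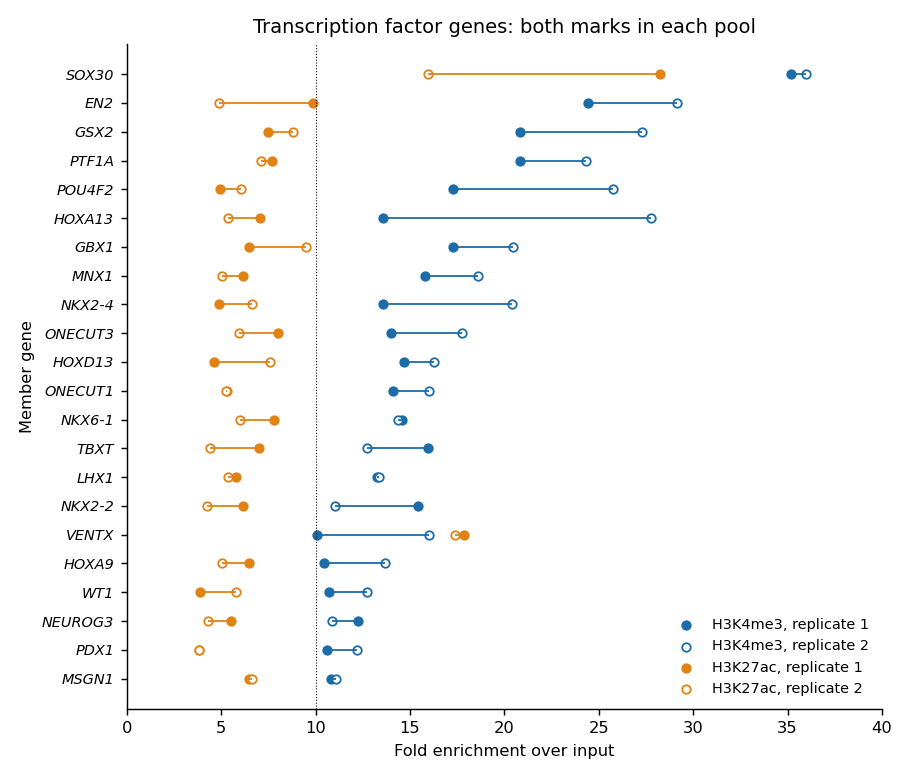
Fold enrichment over input (horizontal) of H3K4me3 (blue) and H3K27ac (orange) in replicate pools 1 (filled) and 2 (open) at the 22 transcription factor genes (vertical), ordered by mean H3K4me3, with a dotted line at 10, the limit set for H3K4me3. H3K27ac lies left of the line in both pools at all but SOX30 and VENTX.

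All 22 transcription factor genes had H3K27ac in both pools, but only *SOX30* and *VENTX* reached a mean of 10. *SOX30*, a factor of male germ cells, had the highest H3K4me3 of the 22 in both pools, at 35.2 and 36.0, over a peak of 1960 and 1704 bp, with H3K27ac of 28.2 and 15.96. *VENTX*, a homeobox factor, had H3K27ac of 17.9 and 17.4 over H3K4me3 of 10.1 and 15.99, the only factor with more H3K27ac than H3K4me3. The median H3K27ac of the 22 genes was 6.46 in pool 1 and 5.86 in pool 2. The 266 expressed transcription factor genes under the same conditions had 32.7 and 28.7, and 91.0% of them reached a mean of 10. The gap was smaller at like H3K4me3. At 10 to 20 the median H3K27ac was 5.73 for 16 silent and 8.62 for 30 expressed factors, and at 20 to 40 it was 7.38 for 6 and 17.4 for 76. The median ratio of H3K27ac to H3K4me3 was 0.396 at the silent factors and 0.619 at the expressed ones. This ratio divides by the H3K4me3 that chose the genes, with set medians of 15.3 and 50.1, and is a description only.

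H3K4me3 peaks at the silent transcription factors were long. Peak length comes from the same peaks as the choice of genes, and is a description. The median length was 3756 bp in pool 1 and 3543 bp in pool 2, and 14 of 22 genes, 63.6%, had a mean over 3 kb. Over the whole set the medians were 2296 and 2349 bp and 33.8% were over 3 kb, beside 39.9% of the expressed genes, whose medians were 2657 and 2635 bp. Among expressed transcription factors 62.0% were over 3 kb, with medians of 3528 and 3467 bp, so long peaks were found at factor genes of both kinds. The 3 longest were those of *VENTX*, at 6808 and 8939 bp, *NEUROG3*, at 4890 and 8619 bp, and *MSGN1*, at 5996 and 6535 bp. *LHX1*, a homeobox factor of the kidney and head organizer, was similar in both pools, at 5886 and 5869 bp. *HOXD13* and *TBXT* were at the other end, with 1308 and 1106 bp and 1248 and 1417 bp. None of the 22 TSSs lay inside the span of another gene over 1 TPM, beside 7.94% of all genes and 1.19% of the expressed marked genes. For 22 genes this is near those shares. None lay within 5 kb of an exon of such a gene, a share that was not counted over all genes. The nearest expressed TSS was at a median distance of 86.5 kb.

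**Figure D4:**
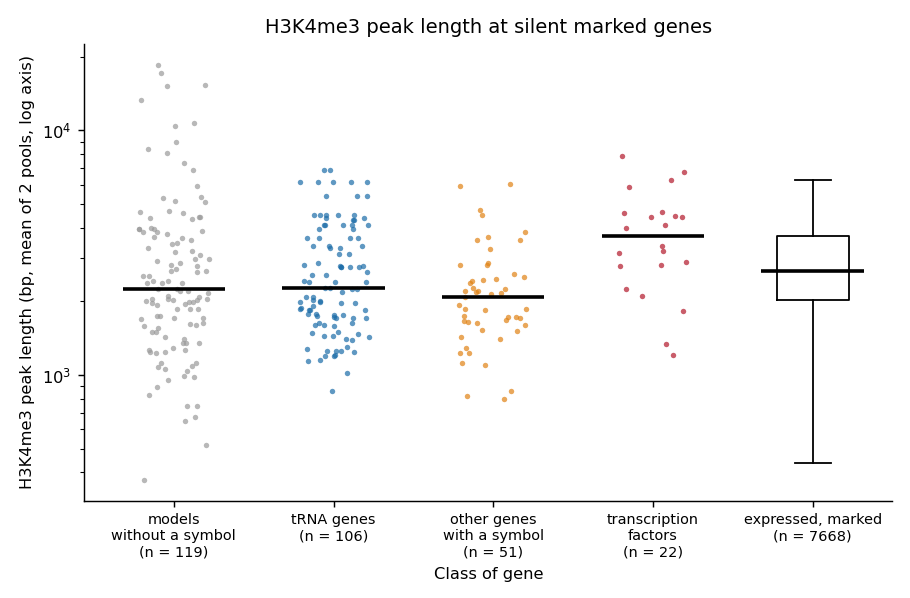
H3K4me3 peak length in bp (mean of pools 1 and 2, log axis) by class of silent marked gene, a point per gene with a black bar at the median, and for the 7668 expressed genes a box from the lower to the upper quartile with whiskers to 1.5 times its height. The transcription factor genes have the highest median, 3686 bp, and the LOC models the widest range, up to 18539 bp.

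The 106 tRNA genes were part of 357 tRNA models. H3K4me3 met the rule at 192 of the 357, which is 53.8% and close to the 53.9% of all genes. A further 118 had a weaker or unmatched peak and 47 had no peak within 1 kb in either pool. Of the 157 that were both silent and marked, 51 had a neighbour over 1 TPM in any library and were left out. A single count on a tRNA model of 72 bp is 1.69 TPM at the mean depth of a library. One count can therefore make a tRNA model such a neighbour, and how many of the 51 this concerns was not counted. With neighbours judged by mean TPM the whole set had 317 genes, 39.1% of them small RNA genes. The 106 genes decode 40 of the 45 anticodons in the table and stand for 19 of 20 amino acids. Leucine had the most, 15 of 28 models, then proline with 11 of 20 and serine with 10 of 25. Phenylalanine had none, with 11 models of which 4 were marked. Any count at all was recorded for 50 of the 357 models.

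**Figure D5:**
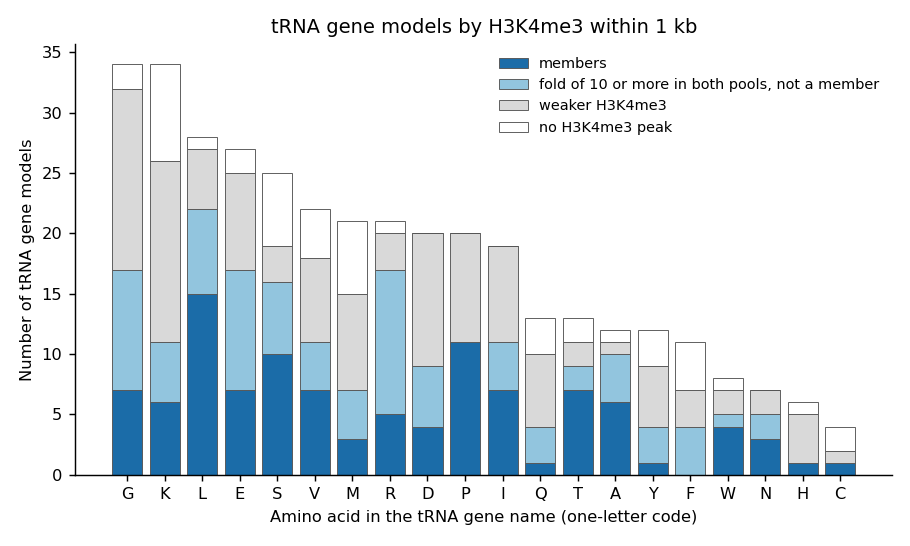
Number of tRNA gene models (vertical) by the amino acid of their name (horizontal, one-letter code), split into members, models with an H3K4me3 fold of at least 10 in both pools that are not members, models with weaker H3K4me3 and models with no peak. Leucine (L) has the most members, 15, and phenylalanine (F) none.

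H3K27ac at a part of the tRNA genes reached the levels of the expressed genes, while the median was lower. The mark was present in both pools at 103 of 106 genes, 97.2%. Its medians were 14.3 and 12.6, beside 34.5 and 29.0 at the expressed genes. A mean of at least 10 was reached by 65 tRNA genes, 61.3%, beside 95.7% of the expressed genes. The genes named next are among the highest for 1 of the marks. *TRNAL-UAA-2*, a leucine tRNA gene (scaffold00097_pilon_pilon, 1554752 to 1554834, minus strand), had H3K4me3 of 52.4 and 64.9 and the highest mean H3K27ac of the set, 105 and 86.5. *TRNAR-UCU-4*, for arginine, had H3K4me3 of 49.1 and 76.0 and H3K27ac of 71.8 and 60.5. The proline pair *TRNAP-AGG-8* and *TRNAP-UGG-6*, 0.397 kb apart, shared a peak of 7176 and 6595 bp with H3K4me3 of 41.1 and 82.2 and H3K27ac of 71.1 and 55.4. The methionine and arginine genes *TRNAM-CAU-21* and *TRNAR-UCG-2* shared a peak with 63.4 and 67.5, the highest mean H3K4me3 of any tRNA gene in the set. *TRNAT-AGU*, for threonine, had H3K4me3 of 42.5 and 81.9 but less H3K27ac, at 14.7 and 25.9. H3K27ac therefore varied by over an order of magnitude between tRNA genes, and its pool values did not overlap between *TRNAL-UAA-2* and *TRNAT-AGU*.

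Many tRNA genes lay in arrays. The 106 genes used 65 H3K4me3 peaks, of which 41 held 1 gene of the set, 14 held 2, 5 held 3, 3 held 4 and 2 held 5. On scaffold00128_pilon_pilon 20 of them lay within 208 kb, and on scaffold00055_pilon_pilon 10 within 106 kb. Both peaks with 5 genes were in the array of 20. Each held tRNA genes for aspartate, glutamate, glycine and leucine. The first, with *TRNAD-GUC-9*, *TRNAE-CUC-6*, *TRNAG-GCC-11*, *TRNAL-CAG-5* and *TRNAL-CAG-6*, was 6163 and 6102 bp long with H3K4me3 of 22.7 and 23.2. The second, with *TRNAD-GUC-13* and 4 others, was 4072 and 4098 bp long with 21.6 and 30.3. H3K27ac was low in both, with gene means between 3.44 and 5.96 at the first and 9.49 at the second. How reads of near-identical tRNA copies were placed was not tested. The summits lay at a median of 477 bp from the start of the gene, although 99 of the 106 starts were under the peak in both pools.

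H3K27ac was missing within 1 kb in both pools at 4 genes. These were *TRNAL-CAG-3*, with H3K4me3 of 14.8 and 15.7, *TRNAQ-CUG-4*, with 11.1 and 12.7, *LOC111721566*, with 33.8 and 33.3, and *LOC111718850*, with 25.0 and 20.9. The LOC models were named after their values were seen. *LOC111718850* also had the shortest H3K4me3 peak of the set, at 378 and 368 bp. At 2 more, *TRNAP-AGG* and *LOC111720978*, the peak was called in pool 2 only, at 3.16 and 3.65.

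The 51 other genes with a symbol had a median H3K4me3 of 17.97 and 20.6 and a median H3K27ac of 8.06 and 7.90. All 51 had H3K27ac in both pools, and 15 had a mean of at least 10. Their H3K4me3 peaks were short beside those of the transcription factors, with medians of 1987 and 2156 bp and 9 of 51 over 3 kb. The lists of channels, receptors, carriers and immune genes gave few of them in number. These were 2 of 14 silent channel genes, 3 of 17 neurotransmitter receptors, 3 of 20 other G protein-coupled receptors, 1 of 5 synapse genes, 1 of 22 other solute carriers and 2 of 29 immune genes. None came from the 5 silent WNT, FGF, TGF-beta and hedgehog signals, the 6 neuropeptides, the 6 olfactory and taste receptors, the 5 cadherins or the 4 keratins. Outside every list, 39 of 706 silent genes with a symbol were in the set, or 5.52%.

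Some of these genes act in the nervous system. *SLC6A11*, a GABA transporter, had H3K4me3 of 20.5 and 31.4 and H3K27ac of 5.996 and 10.1. *KCNK9*, a two-pore potassium channel, had the long peak of this class, at 6041 and 6048 bp, with H3K4me3 of 13.5 and 25.1. Its relative *KCNK15* had 19.8 and 24.5 over 1835 and 2314 bp. The receptors *OPRD1*, for opioids, *HTR5A*, for serotonin, and *GRIN2B*, a subunit of the NMDA glutamate receptor, had H3K4me3 of 13.8 and 22.5, 11.5 and 15.7, and 10.7 and 10.2. In all of these but *SLC6A11* in pool 2, H3K27ac stayed under 10 in both pools. *GPR139*, an orphan receptor of the brain, had H3K4me3 of 13.3 and 20.6, and the adhesion receptor *ADGRD2* had 16.8 and 11.7. Outside the nervous system, *SLC26A5*, the motor protein of cochlear outer hair cells, had H3K4me3 of 18.5 and 18.5 with H3K27ac of 7.06 and 3.12. The immune genes *IL12A*, a cytokine subunit, and *TNFRSF8*, the CD30 receptor, had 16.7 and 22.5, and 15.1 and 13.2.

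*SPATA17*, a gene of the testis, had the strongest H3K4me3 of the protein-coding genes with a symbol, at 72.8 and 81.1, with H3K27ac of 39.5 and 42.2 and counts of 0, 1 and 0. Its TSS lies inside *GPATCH2*, which lies on the opposite strand, had a mean of 2.98 TPM and has an exon 0.122 kb away. The TSS of the *GPATCH2* model was further than 5 kb, at 149 kb, so that the gene passed the condition on neighbours. Other genes known for germ cells or cilia in the set include *MEIKIN*, *ADAD1*, *CCER1*, *LRRIQ4*, *CCDC113*, *SAXO1* and *DNAH7*, picked here after their values were seen. *DNAH7* had H3K4me3 of 19.4 and 25.7 and H3K27ac of 12.7 and 13.3 with counts of 11, 6 and 5. *ADAD1* had 19.1 and 23.5, with H3K27ac of 9.54 and 9.17, and *LRRIQ4* had 16.7 and 28.0, with H3K27ac of 17.02 and 12.8. The pools differed widely at *PRSS16*, a thymus protease gene, with H3K4me3 of 33.8 and 12.4 and H3K27ac of 54.4 and 6.46. Its peaks began 695 and 612 bp from the TSS and had their summits 6855 and 5036 bp downstream.

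*MIRLET7I*, which encodes the microRNA let-7i, had one of the strongest promoters of the set. H3K4me3 was 78.0 and 95.01, over a peak of 2723 and 2368 bp, and H3K27ac was 99.9 and 74.9. It shared this peak with *LOC116419666*, which starts just upstream on the same strand and had no count in 1057 bp of exon, and the nearest other expressed TSS was 143 kb away. The let-7i model is 150 bp long, and 3 counts would amount to 2.43 TPM there.

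The 119 LOC models had the widest range of H3K4me3. The median fold enrichment was 19.8 and 23.1, the median H3K27ac 14.6 and 12.5, and 78 of 119 reached a mean H3K27ac of 10. *LOC116423520* had the highest mean H3K4me3 of the set, at 76.8 and 104, with H3K27ac of 53.3 and 47.1, no count in 774 bp of exon and no expressed TSS within 139 kb. *LOC111720840*, of 75 bp, came next, with 78.7 and 98.8. Its peak of 14939 and 15590 bp, however, reaches the TSS of an expressed gene. Peaks of this kind were found at 5 genes, all of them LOC models, the others being *LOC116422258*, *LOC111719182*, *LOC116419658* and *LOC116421695*, named after their values were seen. The 4 longest peaks of the set were among these 5, with 15157 and 21920 bp at *LOC116422258*. At these 5 the mark of the silent model and that of the expressed gene cannot be told apart.

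Position near expressed genes differed between the classes. The TSS lay inside the span of another gene over 1 TPM at 32 of the 299 genes, 10.7%, beside 1.19% of the expressed marked genes and 7.94% of all genes. Of these 32, 27 were LOC models, 22.7% of that class, 2 were tRNA genes and 3 were others, among them *SPATA17* and *UPF3B*. The strand was opposite to that of the surrounding gene at 25 and the same at 7. An exon of an expressed gene lay within 5 kb at 51 genes and within 1 kb at 23, again mostly LOC models, with 33 and 18. The share with such an exon was not counted over all genes, so these counts do not set the 299 genes apart. Median distance to the nearest expressed TSS was 42.0 kb over the set. By class it was 24.4 kb for tRNA genes, 47.7 kb for LOC models and 95.3 kb for the other genes with a symbol. The nearest expressed TSS could be that of a tRNA model over 1 TPM in a single library. The TSS itself was under the H3K4me3 peak in both pools at 258 genes, 86.3%, and the summit lay at a median of 429 bp from it. How far marks of surrounding or unannotated transcripts contribute at these genes was not tested.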

How the data were processed

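H3K4me3 and H3K27ac were profiled in 2 pools each and RNA in 3 libraries. ChIP reads were trimmed by the authors (cutadapt, 1.9.1), mapped with Bowtie2 (2.3.5.1) on their own dunnart assembly, filtered with SAMtools (1.9) and Picard (2.23.1) and called peaks per pool with MACS2 (2.1.1) against input. The deposited peak lists hold the ratio of signal to input, called fold enrichment, as well as p-value and q-value as -log10. They end at an unadjusted p of 0.01, so q was limited again. The deposited display score of the peaks was not used. ChIP depth per sample cannot be measured from peak lists. For RNA, the authors used Trimmomatic (0.39), HISAT2 (2.21) and featureCounts of Subread (2.0.1), stranded, with gene models lifted from the Tasmanian devil, and deposited unscaled counts with exon lengths. Reads of repeated copies, as of tRNA genes, may be lost or split in both assays.

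Counts were divided by exon length and scaled to TPM. For 11 models written over 2 lines counts were not used. The TSS is the outermost exon end on the strand, and the strongest peak within 1 kb gave fold and length. The 3 RNA columns carry no replicate number. Values rest on 2 pools or 3 libraries of 16096971 to 17419099 counts. Limits from 3 counts and the Wilson interval cover counting error only. Python (3.11.15) with pandas (2.3.3), numpy (2.4.6), scipy (1.17.1) and matplotlib (3.10.9) was used, and edgeR (4.0.16) in R (4.3.3) for TMM factors of an alternative scaling only. There is 1 tissue and stage, so no samples were compared and no test was made.

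The members and lists were chosen with earlier results of these data known. Families are 23 lists of symbol patterns. Named genes are the 10 members with a symbol of highest H3K4me3 fold, the 10 of longest peak, up to 3 of highest fold per family, up to 5 without H3K27ac, the 5 of highest H3K27ac and 2 on each side of each limit. Members outside this rule were named after their values were seen, and some genes under it are not reported here. Selection was tested on simulated data, which returned 330 of 330 planted members and 0 of 2011 others, and TPM was right for 200 of 200 changed genes of 21692. Sequences were not used here, for want of a genome of this assembly.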

Additional observations from a re-analysis of the deposited data

How the results depend on the processing

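No paired analysis was possible because the results come from no test, and the marks were not compared between groups of samples. The 299 members, the 98.0% with H3K27ac, the median peak length of 2246 bp and the 35.8% of small RNA genes depend on the limits as follows, in that order where given. A limit of 0.5 TPM gave 639 members, 98.9% and 16.7%, and no count in any library gave 97.4%, 2373 bp and 46.1%. Without the condition on neighbours there were 510 members with 2421 bp, and with none within 20 kb the values were 2204 bp and 28.4%. A fold of at least 20 gave 134 members, 98.5%, 2605 bp and 45.5%, and of at least 5 gave 605, 94.2%, 2039 bp and 24.1%. A peak on the TSS gave 99.2% and 2373 bp. H3K27ac that shares 1 base with the H3K4me3 peak gave 99.3%, a share of 50% of both lengths 78.6%, and an H3K27ac fold of at least 5 86.3%. Joining peaks under 1 kb apart gave 2571 bp. Chosen after seeing the data, leaving out tRNA genes and models of 200 bp or less gave 177 members, 99.4% and 0%, and taking 1 member per peak gave 2175 bp and 25.5%. Leaving out 1 pool or library at a time gave 331 to 371 members, 96.1% to 98.7%, 2243 to 2382 bp and 31.3% to 35.7%. Members of the HOX and other homeobox lists, 16 in all, numbered 2 at a fold of at least 20, 39 at 5, 25 under 0.5 TPM and 7 with no count. TMM factors, stricter q for either mark, neighbours by the mean TPM and the longest peak in place of the strongest moved none of the 4 values beyond its spread. So the number of members and their make-up follow the limits, while H3K27ac was found at over 90% under every setting but 2, the share of 50% of both lengths and the H3K27ac fold of at least 5.

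The cause of these shifts was not tested beyond what each limit removes. RNA depth limits silence to the bounds given for each class, most in models under 200 bp. With 2 pools the spread of a single gene is known only from a pair of values.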
